A study of Mus musculus with 10 samples.

Results

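The genes described here encode the clathrin coat and its adaptors, the Rab GTPases apart from Rab3a to Rab3d, and the sorting machinery of endosomes, which comprises ESCRT, retromer, the sorting nexins and the Vps tethering factors. They were measured in the brain of mice that lack the adaptor protein Cin85. Genes were chosen by their symbol in the platform annotation and not by a measured value. The choice took in 187 probes of 122 genes, out of 14030 probes and 9930 genes that carry a single symbol. Of these genes, 75 had 1 probe and 47 had several.

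The samples were brain RNA of 5 male Cin85-/- mice aged 15 weeks, each set against the same pool of brain RNA from male wildtype mice of that age. Every mouse was hybridised on 2 two-colour arrays, with its RNA in Cy5 on the first and in Cy3 on the second, so 10 arrays stand for 5 animals. The pool holds 5 mice by the study's design and its listed animals and 6 by its labelling protocol. The sources used here do not give how the allele was made, the genetic background of the line or the part of the brain taken.

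Clathrin and its adaptor complexes shape coated pits at the cell surface and coated vesicles at the trans-Golgi network, and dynamin cuts them free. Rab GTPases mark each compartment and recruit its effectors, ESCRT sorts ubiquitinated receptors towards lysosomes, and retromer with the sorting nexins returns cargo to the Golgi or the surface. In neurons the same machinery retrieves synaptic vesicle membrane and carries growth factor receptors along axons. Cin85, encoded by Sh3kbp1, joins Cbl ubiquitin ligases to endophilins when activated receptors are internalised.

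Each deposited value is a log2 ratio without a level, so the genes cannot be ordered by abundance and the labelled tissue could not be checked from the level of its markers. The main value below is the pair mean, the average of a mouse's 2 arrays, after each array was centred on its median. It is the difference from the pool if the columns run mutant over pool. The dye term is the Cy5 array of a mouse minus its Cy3 array, named by the dye on the mutant RNA and divided by 2. It is the difference from the pool if every column runs Cy5 over Cy3. The sources used here do not settle which of these readings holds, and arrays of opposite orientation from different mice correlated negatively over all probes, with a median Spearman coefficient of -0.29. Signs below are therefore those of the deposited scale. Both quantities are given for the probes named by rule, and some further probes have the pair mean alone. A pair mean close to 0 stands for little difference from the pool only if the columns run mutant over pool.

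The arrays held 16816 to 19424 values each, and 16939 probes had both arrays of at least 4 mice, including 156 of the 187 trafficking probes. The array of mouse 3 with the mutant in Cy3 stood apart. It held the fewest values, and its Spearman coefficients with the other arrays of that orientation lay between -0.073 and 0.032, against up to 0.36 among those. The median size of the pair means of the trafficking probes was 0.35 in mouse 3 and 0.14 to 0.19 in the other mice. Without mouse 3 the pair mean of 31 of the 156 probes had another sign. For each probe named below the value without mouse 3 follows where its sign turned, and where it moved by over 1.5 times and either value was over 0.05 in size. The probe of Sh3kbp1 with values in all mice had a pair mean of 0.0082 ± 0.14 (SD, n = 5 mice) and a dye term of 0.12. Where this probe lies in the transcript is unknown from the sources used here, so it does not check the knockout.

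None of the trafficking genes passed the test. With the pair mean, 0 of 156 probes had an adjusted p under 0.05 (limma against 0, Benjamini-Hochberg over all 16939 probes, 0% of which passed). The smallest adjusted p among them was 0.911. An unadjusted p under 0.05 was found for 7 of the 156 (4.49%), against 3.73% of all probes, and 3 of these had a positive mean and 4 a negative one. Without variance moderation the count was 6, against 713 of all 16939 probes. When a mouse was left out it was 9 without mouse 1, 1 without mouse 2, 9 without mouse 3, 6 without mouse 4 and 2 without mouse 5. Over all 16939 probes the counts without mouse 1, 2, 3, 4 and 5 were 635, 586, 746, 525 and 502. These 7 p-values belonged to probes of Pacsin3, Rab21, Pacsin2, Vps33a, Rab28, Snx7 and Rab39b, whose values follow under their roles.

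The means of 70 probes were positive and those of 86 negative, or 44.9% positive against 50.1% of all probes tested. Without mouse 3 these were 65 and 91, or 41.7% against 45.9%. The median pair mean was -0.014 over the trafficking probes and 0.0006 over all probes, and its median in single mice lay between -0.076 in mouse 3 and -0.008 in mouse 4. The median size of a difference was 0.11 against 0.12 for all probes, and the median SD between mice was 0.29 against 0.34. Among 123 probes measured in all 5 mice, 8 kept their sign from mouse to mouse (6.5%), close to the 7.01% of all such probes. Averaged over the probes of a gene, 50 genes were positive and 57 negative.

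**Figure D1:**
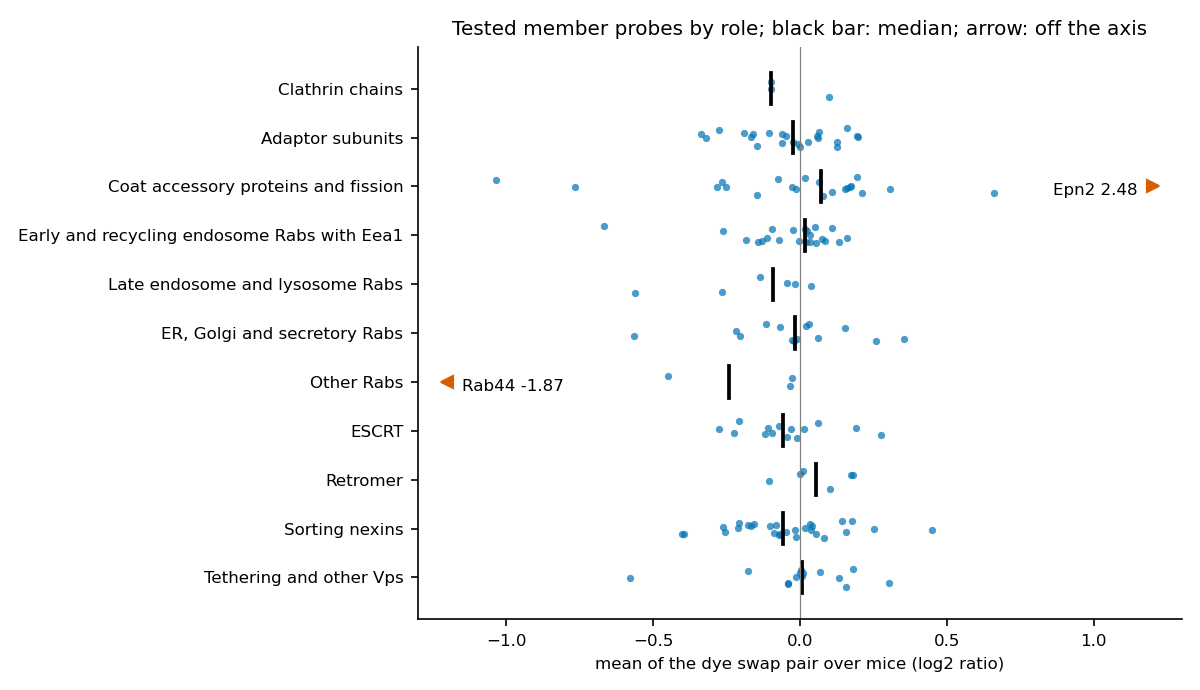
Pair means of the 156 tested probes of clathrin, Rab and endosomal sorting genes, by role (horizontal axis: log2 ratio averaged over mice; 1 point per probe; black bar: median of the role). Medians lie between -0.098 and 0.071 for all roles but the other Rabs (-0.24), and the 2 probes beyond the axis, of Epn2 (2.48) and Rab44 (-1.87), hold capped ratios, values at the fixed extreme of an array.

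No clathrin probe differed from the pool in the pair mean beyond the spread between mice. Clta, the clathrin light chain A, read -0.13, 0.016, -0.42, 0.46 and -0.42 in mice 1 to 5. Its mean was -0.10 ± 0.36 (SD, n = 5 mice), and the mice lay on both sides of 0. It was -0.020 without mouse 3, and the dye term was -0.10. Cltc, the heavy chain that forms the legs of the triskelion, was measured by 2 probes whose means had opposite signs, 0.10 ± 0.18 (SD, n = 5 mice) on probe 11634 and -0.10 ± 0.19 (SD, n = 5 mice) on probe 2521. The first read -0.16, -0.025, 0.28, 0.19 and 0.21 in mice 1 to 5, and the second -0.10, 0.22, -0.14, -0.31 and -0.16 in mice 1 to 5. The 95% intervals of the Cltc means, -0.16 to 0.35 and -0.36 to 0.16, both include 0, and without mouse 3 the first mean was 0.053. The dye terms of these probes, 0.34 and -0.21, again had opposite signs. Cltb, the other light chain, had no probe with enough values.

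The adaptor complexes, which link clathrin to cargo, gave 9 positive and 14 negative means over the 23 tested of 29 probes, with a median of -0.024. An unadjusted p under 0.05 was found for 0 in the pair mean, against 3.73% of all probes, and for 6 in the dye term, against 27.6%. After scaling between arrays 11 pair means were positive and 12 negative. The lowest mean was that of Ap2a2, an alpha subunit of the AP-2 complex of coated pits. Probe 6628 of Ap2a2 read 0.39, -0.87, -1.61, 0.26 and 0.16 in mice 1 to 5, a mean of -0.34 ± 0.87 (SD, n = 5 mice) in which mice 2 and 3 were low and the other 3 mice were above 0. Without mouse 3 its mean was -0.017. A further Ap2a2 probe, 11112, had a mean of -0.32 ± 0.81 (SD, n = 5 mice) that was -0.10 without mouse 3. The dye terms of the Ap2a2 probes had opposite signs, -0.22 and 0.82. Ap3s2, the sigma subunit of AP-3, which serves lysosome-related organelles, had the highest mean on probe 19583. It read -0.093, -0.025, 1.10, -0.028 and 0.044 in mice 1 to 5, so mouse 3 alone was far from 0. The mean of 0.20 ± 0.50 (SD, n = 5 mice) became -0.025 without mouse 3, and the dye term was 0.065. Ap1b1, a beta subunit of the AP-1 complex of the trans-Golgi network, had a mean of -0.14 ± 0.12 (SD, n = 4 mice). Ap2m1 and Ap2s1, the mu and sigma subunits of AP-2, had no tested probe.

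Among the accessory proteins of the coat and the fission machinery, 13 means were positive and 9 negative over 22 tested of 26 probes, with a median of 0.071. Pacsin3, a membrane-bending F-BAR protein that binds dynamin, had the smallest p of all trafficking probes. Its pair means were -0.17, -1.38, -0.94 and -0.58 in mice 1, 2, 4 and 5. All 4 were negative, with a mean of -0.77 ± 0.52 (SD, n = 4 mice) and a 95% interval of -1.33 to -0.21. The unadjusted limma p was 0.0167 and the adjusted p 0.911. The single arrays were less even, with -0.43, -3.77, 0.16, -0.67 and -0.42 in mice 1 to 5 when the mutant was in Cy5 and 0.10, 1.002, -1.21 and -0.73 in mice 1, 2, 4 and 5 when it was in Cy3. The dye term was -0.56 ± 1.24, and the Cy5 array of mouse 2 was the most extreme of these 9 arrays.

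Pacsin2, a broadly expressed relative of Pacsin3, showed no single direction across its probes. Probe 2528 read 0.032, 0.97, 0.62 and 1.03 in mice 1, 2, 3 and 5, 4 positive values with a mean of 0.66 ± 0.46 (SD, n = 4 mice). Probes 10364 and 8416 had negative means of -0.27 ± 0.50 (SD, n = 5 mice) and -0.25 ± 0.47 (SD, n = 4 mice). On probe 10364 the negative mean rested on mouse 3 at -1.15, and it was -0.044 without that mouse. Dye terms were -0.43 for probe 2528, 0.39 for probe 8416 and -0.0076 for probe 10364. Where these probes lie in the transcript is unknown here.

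Amphiphysin and its relative Bin1 bind clathrin, AP-2 and dynamin at the neck of the pit. Amph read -0.14, -0.42, -0.42 and -0.15 in mice 1, 2, 4 and 5, all below 0, with a mean of -0.28 ± 0.16 (SD, n = 4 mice), an unadjusted limma p of 0.0594 and an adjusted p of 0.911. Its dye term was -0.19 ± 0.29. Bin1 probe 16725 had the lowest mean of the role, -1.04 ± 1.44 (SD, n = 4 mice), from values of -0.54, -1.17, -2.93 and 0.51 in mice 1, 2, 3 and 4. The other Bin1 probe, 17140, had a mean of 0.080 ± 0.35 (SD, n = 5 mice). Without mouse 3 both were negative, -0.40 and -0.073, and their dye terms had opposite signs, 1.28 and -0.14. Dnm1, the neuronal dynamin that severs vesicles, read 0.51, 0.28, -0.84 and 0.73 in mice 1, 2, 3 and 4. Mice 1, 2 and 4 were above 0 and mouse 3 below, and the mean was 0.17 ± 0.70 (SD, n = 4 mice), or 0.51 without mouse 3. Its dye term was 0.26 ± 0.68.

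The scaffold proteins of the pit did not differ from the pool in the pair mean beyond the spread between mice. Eps15, an EH domain scaffold that binds AP-2, read -0.071, 0.062, 0.14, -0.23 and -0.27 in mice 1 to 5, with a mean of -0.075 ± 0.18 (SD, n = 5 mice) and an interval of -0.33 to 0.18. The mean was -0.13 without mouse 3, and the dye term of -0.35 ± 0.21 was negative in all 5 mice. Itsn1, intersectin, which has EH and SH3 domains and gathers dynamin at the pit, had means of 0.017 ± 0.17 (SD, n = 5 mice), -0.014 ± 0.52 (SD, n = 5 mice) and 0.21 ± 0.57 (SD, n = 4 mice) on probes 11293, 255 and 3771. Probe 255 was below 0 in 4 mice and at 0.91 in mouse 3, and without mouse 3 its mean was -0.25. On probe 3771 the positive mean rested on mouse 4 at 1.05, and it was -0.070 without that mouse. Without mouse 3 the means on probes 11293 and 3771 were 0.071 and 0.33. The dye terms on probes 11293, 255 and 3771 were 0.66, 0.011 and -0.35. Hip1, which joins clathrin to actin, had means of 0.19, 0.31, -0.15 and -0.026 on probes 7421, 15762, 19824 and 7853, the last of which was 0.16 without mouse 3. The dye terms, -0.32, -0.71, 0.55 and -0.12, had the opposite sign on the first 3 of these probes. Probe 7421 of Hip1 was positive in all 5 mice, at 0.28, 0.12, 0.10, 0.073 and 0.40 in mice 1 to 5, while its dye term was negative in all 5, so its direction depends on how the columns run. Epn2, an epsin that bends membrane and carries ubiquitinated cargo, had the highest mean of all, 2.48 ± 4.37 (SD, n = 4 mice). It held 2 capped ratios, one of which set mouse 4 at 8.57, and without mouse 4 the mean was 0.45. Its dye term was 2.96 ± 3.62.

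**Figure D2:**
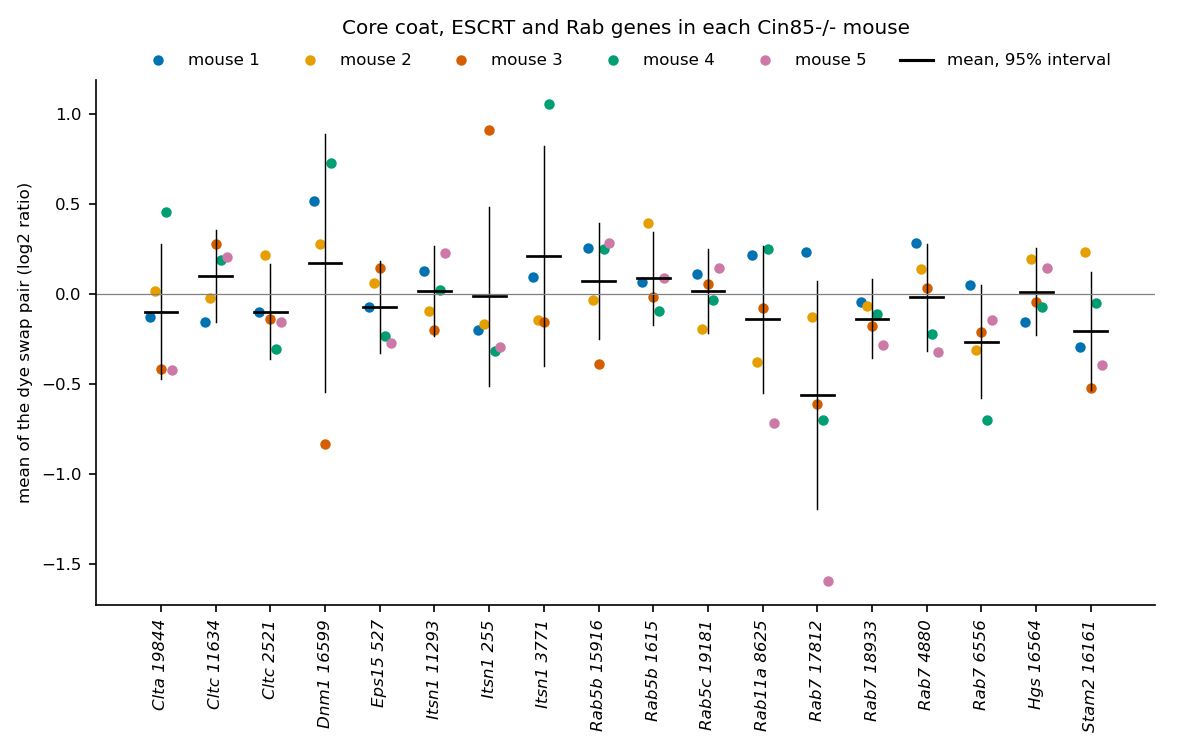
Pair means of clathrin, dynamin 1, Eps15, Itsn1, Rab5, Rab7, Rab11a, Hgs and Stam2 probes (vertical axis: log2 ratio; 1 coloured point per mouse; bar and line: mean and 95% interval of limma). All 18 intervals include 0, and the widest spreads are those of Dnm1, Itsn1 probe 3771 and Rab7 probe 17812.

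The Rabs of early and recycling endosomes gave 12 positive and 10 negative means over 22 tested of 25 probes, with a median of 0.019 that was -0.038 without mouse 3. Rab5, the master GTPase of early endosome fusion, was represented by Rab5b and Rab5c. Rab5b read 0.26, -0.031, -0.39, 0.25 and 0.28 in mice 1 to 5 on probe 15916 and 0.065, 0.39, -0.020, -0.10 and 0.091 in mice 1 to 5 on probe 1615. Both means were positive, 0.073 ± 0.29 (SD, n = 5 mice), or 0.19 without mouse 3, and 0.087 ± 0.19 (SD, n = 5 mice). Their dye terms were negative in all 5 mice and larger, -0.39 ± 0.27 and -0.44 ± 0.22, with unadjusted limma p-values of 0.0227 and 0.00848 and adjusted p-values of 0.132 and 0.103. The direction of Rab5b therefore depends on how the columns run. Rab5c had a mean of 0.017 ± 0.14 (SD, n = 5 mice) and an interval of -0.22 to 0.25, among the narrower ones of the set, and its sign changed after scaling between arrays, to -0.0057. The dye term of Rab5c, -0.19 ± 0.11, was negative in all 5 mice. Rab11a, which directs slow recycling to the surface, read 0.21, -0.38, -0.079, 0.25 and -0.72 in mice 1 to 5. Mice 1 and 4 were above 0 and the others below, with a mean of -0.14 ± 0.41 (SD, n = 5 mice) and a dye term of -0.014 ± 0.36.

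Rab21, which resides on early endosomes and takes part in integrin uptake, had the next smallest p after Pacsin3. Probe 2358 read -0.36, -1.08, -0.20 and -1.02 in mice 1, 2, 4 and 5. All 4 mice were negative, with a mean of -0.67 ± 0.45 (SD, n = 4 mice), an interval of -1.17 to -0.16 and an unadjusted limma p of 0.019, adjusted 0.911. On probe 19933 the mean was -0.26 ± 0.29 (SD, n = 5 mice), with mouse 4 above 0. On probe 3675 it was 0.16 ± 0.33 (SD, n = 5 mice), with only mouse 5 below 0, and 0.070 without mouse 3. In the dye term these 3 probes gave 0.0086, 0.56 and -0.37, so neither quantity gave Rab21 a shared sign over its probes. Rab31, a relative of Rab22a that acts between the trans-Golgi network and endosomes, ranged from -0.81 in mouse 4 to 0.76 in mouse 1, with a mean of -0.024 ± 0.62 (SD, n = 5 mice).

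On the route to lysosomes, 1 mean was positive and 5 negative over 6 tested of 7 probes, with a median of -0.091. Rab7, which governs the maturation of late endosomes, was measured by 4 probes and all of their means were negative, except that probe 4880 was 0.022 after scaling between arrays. Probe 17812 read 0.23, -0.13, -0.61, -0.70 and -1.59 in mice 1 to 5. Mouse 5 was the lowest and mouse 1 was positive, with a mean of -0.56 ± 0.69 (SD, n = 5 mice) that was -0.30 without mouse 5. Probe 18933 was below 0 in every mouse, at -0.046, -0.069, -0.18, -0.11 and -0.28 in mice 1 to 5, but the differences were small, -0.14 ± 0.10 (SD, n = 5 mice). Probes 4880 and 6556 had means of -0.017 ± 0.25 (SD, n = 5 mice) and -0.26 ± 0.28 (SD, n = 5 mice). No Rab7 probe passed, with unadjusted limma p-values of 0.0738, 0.177, 0.892 and 0.0851, each with an adjusted p of 0.911 or more. In the dye term the same probes gave 0.045, -0.27, -0.21 and -0.22. Rab9, which returns mannose 6-phosphate receptors to the Golgi, had a mean of -0.045 ± 0.23 (SD, n = 5 mice). The dye term of Rab9, -0.34 ± 0.080, was negative in all 5 mice. Rab34, which positions lysosomes, had a mean of 0.039 ± 0.66 (SD, n = 5 mice) that turned to -0.24 without mouse 3, and its dye term was -0.48 ± 1.08.

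The Rabs of the endoplasmic reticulum, Golgi and secretory route gave 6 positive and 8 negative means over 14 tested of 16 probes, with a median of -0.015. Rab39b, a neuronal Rab whose loss causes intellectual disability in humans, read 0.45, 0.44, 0.0090 and 0.52 in mice 2, 3, 4 and 5. Mice 2, 3 and 5 were close together and mouse 4 was near 0, with a mean of 0.35 ± 0.23 (SD, n = 4 mice) and an unadjusted limma p of 0.0442, adjusted 0.911. Its dye term was 0.35 ± 0.24. Rab2b, which acts between the endoplasmic reticulum and Golgi, had the lowest mean, -0.56 ± 0.75 (SD, n = 5 mice). It read -0.28, -0.67, -1.73, 0.33 and -0.47 in mice 1 to 5, and without mouse 3 its mean was -0.27. The dye term of Rab2b was 0.19 ± 0.70. Rab6a, a Rab of the Golgi stack, was the least variable of the group in the pair mean on probe 19915, at -0.010 ± 0.063 (SD, n = 5 mice). Its probe 17369 gave 0.26 ± 0.70 (SD, n = 4 mice). The dye term of probe 19915, -0.36 ± 0.15, was negative in all 5 mice, and that of probe 17369 was -0.36 ± 0.82.

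The 4 tested of 5 probes of the remaining Rabs all had negative means, with a median of -0.24, but without mouse 3 only 2 were negative. Rab28, a Rab linked to cilia and photoreceptors, read -0.016, -0.34, -0.71 and -0.73 in mice 1, 2, 4 and 5. The mean was -0.45 ± 0.34 (SD, n = 4 mice) with an unadjusted limma p of 0.0385, adjusted 0.911, and mouse 1 was close to 0. The dye term was -0.32 ± 0.46. Rab12 and Rab23 had means of -0.029 and -0.034 that were 0.044 and 0.029 without mouse 3, and the dye term of Rab12 was -0.46 ± 0.25. Rab44 read -0.45, -0.078, -8.55, -0.13 and -0.16 in mice 1 to 5. The array of mouse 3 with the mutant in Cy3 held a capped ratio there, and the mean of -1.87 ± 3.73 (SD, n = 5 mice) was -0.21 without that mouse. The dye term of Rab44, 1.76 ± 3.62, rested on the same array.

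ESCRT, the complex that packs ubiquitinated receptors into multivesicular bodies, gave 4 positive and 10 negative means over 14 tested of 16 probes, with a median of -0.056. An unadjusted p under 0.05 was found for 0 in the pair mean, against 3.73% of all probes, and for 6 in the dye term, against 27.6%. There were 6 positive and 8 negative pair means after scaling between arrays and also without mouse 3, where the median was -0.023. Hgs, the ESCRT-0 subunit that binds ubiquitin first, read -0.16, 0.19, -0.047, -0.074 and 0.15 in mice 1 to 5. Its mean was 0.013 ± 0.15 (SD, n = 5 mice) with an interval of -0.23 to 0.25, and its dye term was -0.039 ± 0.047. Stam2, its partner, read -0.30, 0.23, -0.52, -0.052 and -0.39 in mice 1 to 5, below 0 in all but mouse 2, with a mean of -0.21 ± 0.30 (SD, n = 5 mice), or -0.13 without mouse 3, and a dye term of -0.23 ± 0.36. In ESCRT-I, both Vps28 probes were positive, 0.28 ± 0.28 (SD, n = 5 mice) on probe 5865 and 0.19 ± 0.25 (SD, n = 5 mice) on probe 19044. The former read 0.0040, 0.23, 0.64, 0.022 and 0.49 in mice 1 to 5, so mice 1 and 4 were near 0 and mice 3 and 5 were high. Their dye terms, -0.37 and 0.14, had opposite signs. Vps36 of ESCRT-II had the lowest mean on probe 3958, -0.28 ± 0.66 (SD, n = 5 mice), set by -1.43 in mouse 3, and without it the mean was 0.013. The ATPases that disassemble ESCRT, Vps4a and Vps4b, had means of -0.070, or -0.13 without mouse 3, and -0.029 on the Vps4a probes and 0.062 on the Vps4b probe. The dye terms of the Vps4a probes, 0.82 and 0.19, were positive in all 5 mice, and that of Vps4b was -0.060.

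Retromer and the related retriever gave 5 positive and 1 negative mean over 6 tested of 8 probes, with a median of 0.056. After scaling between arrays 3 were positive and 3 negative, and without mouse 3 there were 2 positive and 4 negative means. Vps26a, a cargo-binding arm of retromer, was the negative one, with a mean of -0.10 ± 0.31 (SD, n = 5 mice) and values of -0.46, 0.031, -0.38, 0.27 and 0.013 in mice 1 to 5. Its mean was -0.035 without mouse 3, and its dye term was 0.078 ± 0.17. Its paralogue Vps26b had means of 0.0016 ± 0.45 (SD, n = 5 mice) and 0.10 ± 0.27 (SD, n = 5 mice), or -0.16 and 0.0072 without mouse 3. The dye terms of these Vps26b probes were 0.28 and 0.56. Vps29, a core subunit of both complexes, had a mean of 0.17 ± 0.46 (SD, n = 5 mice) that was -0.020 without mouse 3, which read 0.94. Vps35l, the retriever counterpart of Vps35, read -0.32, 1.55, -0.30 and -0.22 in mice 1, 2, 4 and 5 on probe 17412. Mouse 2 was high and the other 3 were below 0, so the mean of 0.18 ± 0.92 (SD, n = 4 mice) had a different sign from most of its mice and was -0.28 without mouse 2. The single arrays were -1.21, 0.43, -1.59 and -1.13 in mice 1, 2, 4 and 5 with the mutant in Cy5 and 0.57, 2.67, 0.995 and 0.69 in mice 1, 2, 4 and 5 with it in Cy3. The further Vps35l probe, 3950, had a mean of 0.0088 ± 0.43 (SD, n = 5 mice), or -0.18 without mouse 3.

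The sorting nexins, which bind phosphoinositides and shape sorting tubules, gave 11 positive and 17 negative means over 28 tested of 33 probes, with a median of -0.057. Snx7, a BAR domain nexin that pairs with Snx4, read -0.26, -0.22, -0.48, -0.33 and -0.0080 in mice 1 to 5. It was negative in all 5 mice, with a mean of -0.26 ± 0.17 (SD, n = 5 mice), an interval of -0.51 to -0.010, an unadjusted limma p of 0.0437 and an adjusted p of 0.911. Its dye term of 0.033 ± 0.35 was close to 0. Snx4 itself had a mean of 0.18 ± 0.14 (SD, n = 4 mice). Snx10, which is mutated in a form of osteopetrosis, was negative in all 5 mice on probe 18013, at -0.20, -0.13, -0.32, -0.049 and -0.58 in mice 1 to 5, with a mean of -0.25 ± 0.21 (SD, n = 5 mice). Its dye term there, -0.30 ± 0.16, was also negative in all 5 mice. On its other probe, 4726, the mean was 0.019 ± 0.23 (SD, n = 5 mice), or -0.059 without mouse 3, and the dye term was 0.20.

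Snx29 had 3 tested probes, all with negative means, -0.40 ± 0.41 (SD, n = 5 mice), -0.39 ± 0.43 (SD, n = 5 mice) and -0.067 ± 0.62 (SD, n = 5 mice) on probes 9725, 3762 and 6441, the last of which was 0.068 without mouse 3. Probe 9725 read -0.39, -0.56, -0.93, 0.19 and -0.33 in mice 1 to 5, and only mouse 4 was positive. In the dye term all 3 were positive, at 0.13, 0.45 and 0.45, so the direction of Snx29 depends on how the columns run. Snx5, a BAR domain nexin that returns mannose 6-phosphate receptors to the Golgi, read -0.29, 0.10, -0.43, -0.30 and 0.10 in mice 1 to 5 and had a mean of -0.17 ± 0.25 (SD, n = 5 mice), or -0.10 without mouse 3. Snx11 had the highest mean of the family, 0.45 ± 1.38 (SD, n = 4 mice). It read 1.18, 1.02, -1.61 and 1.22 in mice 1, 2, 3 and 4, so 3 mice were above 1 and mouse 3 was far below, and without mouse 3 the mean was 1.14 from 3 mice. Its dye term was 0.65 ± 1.51. Snx27, which recycles receptors with a PDZ motif, had means of 0.036 and 0.083 on its probes, or 0.062 and -0.051 without mouse 3. Snx30 had means of -0.017, -0.014 and -0.047, of which the second was 0.019 without mouse 3. In the dye term the Snx27 probes gave -0.042 and 0.48, and the Snx30 probes -0.34, -0.076 and -0.41.

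The tethering factors and other Vps genes gave 8 positive and 6 negative means over 14 tested of 16 probes, with a median of 0.0054 that was -0.010 without mouse 3. Vps33a, which chaperones SNARE assembly in the HOPS and CORVET tethers, read 0.022, 0.31, 0.56, 0.31 and 0.33 in mice 1 to 5 on probe 2047. It was positive in all 5 mice, with a mean of 0.30 ± 0.19 (SD, n = 5 mice), an interval of 0.043 to 0.56 and an unadjusted limma p of 0.0289, adjusted 0.911. Its other probe, 16878, read -2.02, -0.32, 0.20 and -0.17 in mice 1, 2, 3 and 5, with a mean of -0.58 ± 0.99 (SD, n = 4 mice) and a dye term of 0.050 ± 1.51. The dye term of probe 2047 was -0.45 ± 0.46, so the probes of this gene had opposite signs in both quantities. Vps11, Vps16, Vps39 and Vps41 of HOPS had means of 0.18, 0.0038, 0.0091 and -0.040. Without mouse 3 those of Vps11, Vps39 and Vps41 were 0.014, -0.12 and -0.065. The dye terms of Vps11, Vps16, Vps39 and Vps41 were 0.435, 0.12, 0.50 and -0.13, and that of Vps39 was positive in all 5 mice. The 3 probes of Vps53, part of the GARP tether at the trans-Golgi network, had pair means within 0.041 of 0, but probe 3228 was -0.10 without mouse 3. Probe 11936 of Vps53 varied little between mice in the pair mean, at 0.0071 ± 0.080 (SD, n = 5 mice). Its dye term was -0.32 in a fit of all 10 arrays with a dye covariate. The dye terms of the 3 probes ran from -0.33 to 0.025.

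Probes of the same gene often differed. Of the 37 genes with several tested probes, 17 had probes with both signs in the pair mean and 21 in the dye term. The same share over all genes with several probes was not computed, so these counts do not set the trafficking genes apart. Rab5b, Rab35 and Ap2a2 had the closest probe means, while Bin1, Pacsin2 and Vps33a were the farthest apart, the Bin1 probes only when mouse 3 was included. The probe sequences were not analysed here, so whether a pair of probes reads the same transcript is not known.

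**Figure D3:**
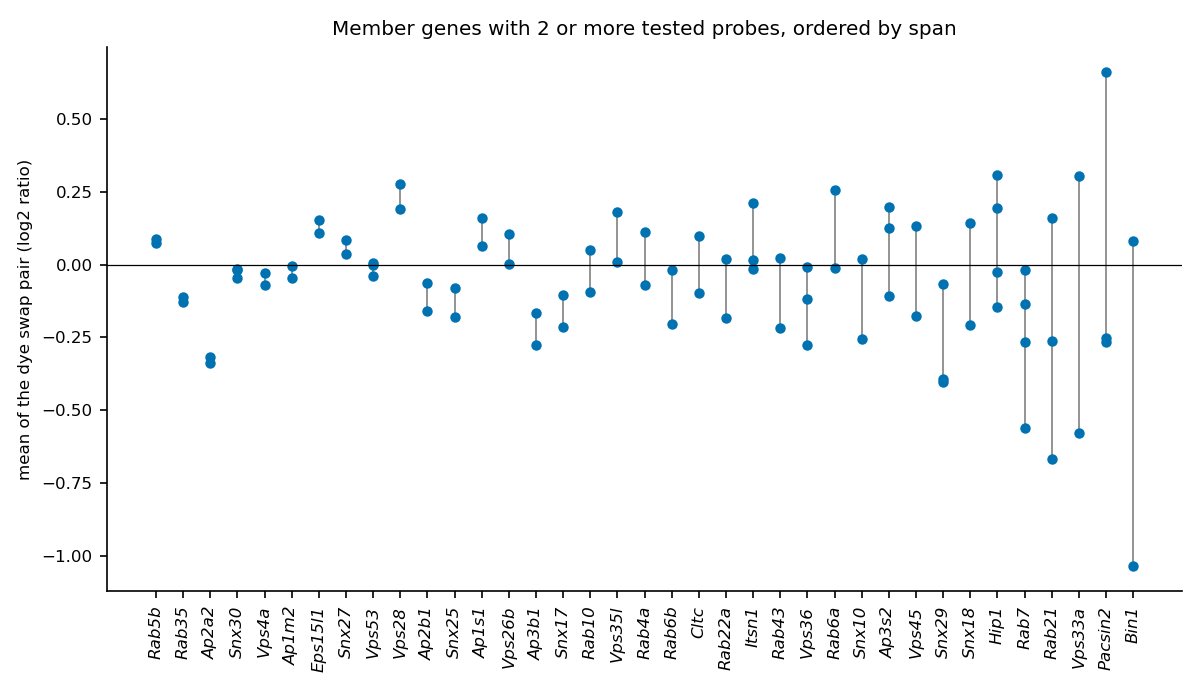
Pair means (vertical axis: log2 ratio averaged over mice) of each tested probe, 1 point per probe, for the 37 genes with several tested probes, joined by a line per gene and ordered by span. Probes of 17 genes lie on both sides of 0, and Bin1, Pacsin2 and Vps33a have the longest lines.

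In the dye term more probes had the same sign in every mouse, among these genes and over the whole array, while the median SD between mice was no smaller, 0.31 against 0.29 in the pair mean of the trafficking probes. Again 0 of 156 probes passed (limma adjusted p, against 0% of all probes), and the smallest adjusted p was 0.0988. An unadjusted p under 0.05 was found for 52 of the 156 probes (33.3%), against 27.6% of all probes. Every mouse had the same sign for 45 of 123 (36.6%), against 30.5%. There were 64 positive and 92 negative dye terms, with a median of -0.068, against -0.064 for all probes. The mean over the Cy5 arrays and the mean over the Cy3 arrays had opposite signs for 121 of the 156 probes (77.6%), against 70.8% of all probes. Across the 156 probes their Spearman coefficient was -0.56, against -0.46 over all probes, a description over probes that share the same 10 arrays and the same pool.

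**Figure D4:**
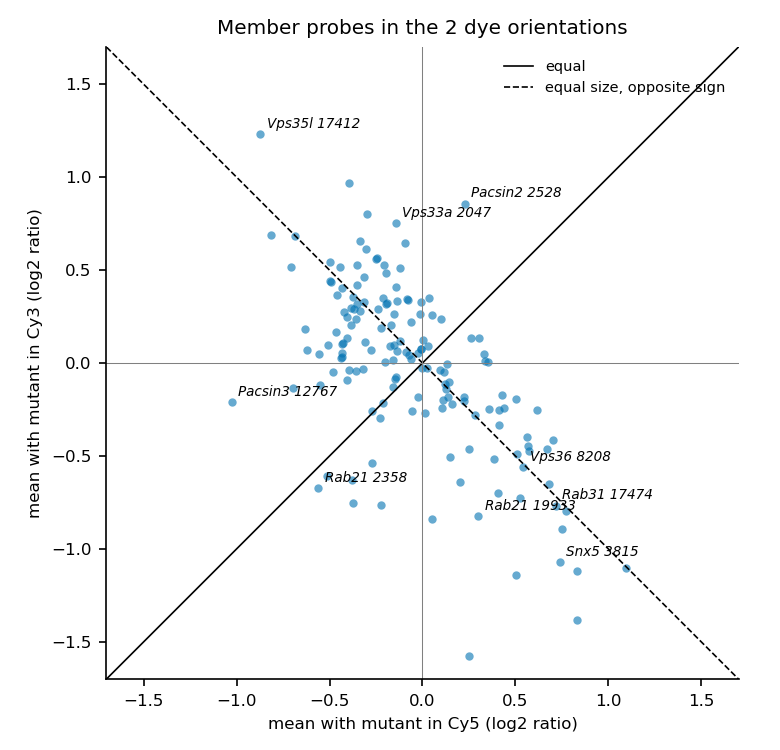
Mean log2 ratio of each tested probe over the arrays with the mutant in Cy5 (horizontal axis) and over those with the mutant in Cy3 (vertical axis), 1 point per probe, for the 154 probes within 1.7 of 0 on both axes (2 lie outside). In the upper left and lower right, 121 of the 156 probes have opposite signs in the orientations, Snx5 and Vps36 among them, while Rab21 probe 2358 and Pacsin2 probe 2528 have the same sign in both orientations.

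The 5 probes with the smallest p in the dye term belonged to Vps35l, Snx5, Vps36, Rab21 and Rab31. Vps35l probe 17412 had a dye term of -1.05 ± 0.19 (SD, n = 4 mice), the probe whose Cy5 values were low and whose Cy3 values were high in 3 of its 4 mice. The dye term of the other Vps35l probe, 3950, had the opposite sign, 0.22 ± 0.32 (SD, n = 5 mice). Snx5 had a dye term of 0.91 ± 0.35 (SD, n = 5 mice). Its arrays read 0.19, 0.67, 0.78, 0.79 and 1.28 in mice 1 to 5 with the mutant in Cy5 and -0.77, -0.47, -1.64, -1.40 and -1.08 in mice 1 to 5 with it in Cy3, so the orientations did not overlap. Vps36 probe 8208 had a dye term of 0.55 ± 0.14 (SD, n = 5 mice), from 0.33, 0.68, 0.67, 0.83 and 0.20 in mice 1 to 5 against -0.64, -0.44, -0.48, -0.70 and -0.56 in mice 1 to 5. The other Vps36 probes had dye terms of 0.89 and 1.11, so the 3 probes of this gene shared a positive sign. Rab21 probe 19933 and Rab31 had dye terms of 0.56 ± 0.15 and 0.74 ± 0.32. Beyond these 5, Vps26b probe 8874 had a dye term of 0.56 ± 0.18, positive in all 5 mice, and Itsn1 probe 11293 one of 0.66 ± 0.27. The Itsn1 arrays read 0.40, 0.62, 0.52, 1.04 and 0.82 in mice 1 to 5 against -0.14, -0.81, -0.92, -1.001 and -0.36 in mice 1 to 5. From Vps35l to Itsn1, in the order given, the unadjusted limma p-values were 0.000328, 0.00086, 0.0013, 0.00132, 0.00167, 0.00171 and 0.00186. Each had an adjusted p of 0.0988.

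The precision differed between genes. For 106 of the 156 probes (67.9%) the whole 95% interval of the pair mean was inside a 1.5-fold difference from the pool, against 60.7% of all probes. It was inside 2-fold for 136 and inside 4-fold for 153. For the dye term it was inside 1.5-fold for 70 (44.9%), against 38.9% of all probes. Among the probes of core genes with intervals within 1.5-fold in the pair mean were those of Cltc, Eps15, Itsn1 probe 11293, Rab5c and Hgs. In the dye term the intervals of Cltc probe 11634, Eps15 and Itsn1 probe 11293 passed 1.5-fold. They were 0.042 to 0.63, -0.62 to -0.071 and 0.35 to 0.98, while those of Cltc probe 2521, Rab5c and Hgs stayed inside it. These intervals cover the spread between the Cin85-/- mice and not that between wildtype mice, since the pool is 1 sample. In bulk tissue, fewer cells of a type and less RNA per cell cannot be told apart.

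Other genes of the pathway gave no call either. Of 84 listed genes outside the set, such as the ESCRT-III proteins, Rab regulators, endosomal SNAREs and sorting receptors, 49 were tested with 79 probes. In the pair mean none passed (limma adjusted p), and 0 had an unadjusted p under 0.05, against 3.73% of all probes. The means of 43 were above 0 and those of 36 below, with a median of 0.019. None passed in the dye term, whose median was -0.048. Several dye terms had an unadjusted limma p under 0.05, such as 0.71 for Rin1 probe 9611 (p = 0.000591, adjusted 0.0988). The smallest p-values of the pair means began with Rabgef1, an exchange factor for Rab5, at -0.22 ± 0.13 (SD, n = 5 mice) on probe 8187. Rin3, another exchange factor, had a mean of 0.24 ± 0.27 (SD, n = 5 mice). The dye terms of Rabgef1 probe 8187 and Rin3 were -0.31 and -0.48. Chmp2a, an ESCRT-III subunit, followed with -0.30 ± 0.42 (SD, n = 5 mice), of which mouse 3 read -1.001 and the others between -0.40 and 0.033. Necap1, which binds AP-2, had a mean of -0.75 ± 1.23 (SD, n = 4 mice), of which mouse 4 read -2.59 and the others between -0.30 and -0.015.

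Markers of other cells gave 0 calls. The 3 choroid plexus probes, from 2 tested genes of 8 listed, all had negative means, with a median of -0.32. Of these, 1 of the 2 Ttr probes and the Sostdc1 probe had an unadjusted limma p under 0.05. In the dye term the Ttr probes had opposite signs, 0.34 and -0.46, and Sostdc1 read -0.43. Medians of the other lists were 0.21 for 6 kidney probes, -0.14 for 4 microglia probes, 0.074 for 3 neuron probes, 0.028 for 6 oligodendrocyte probes, -0.01 for 8 astrocyte probes and 0.0084 for 7 blood probes. The kidney list was examined because the mutant RNA is also labelled Kdn, a term left unexplained. Napsa, a protease of kidney and lung, gave the smallest p of all marker probes on probe 221, with 1.74, 1.28, 0.51 and 1.76 in mice 1 to 4. Its mean was 1.32 ± 0.59 (SD, n = 4 mice), with an unadjusted limma p of 0.00252 and an adjusted p of 0.911. The other Napsa probe, 551, read -0.13, -0.0805, -0.0265 and 1.06 in mice 2 to 5, so its mean of 0.21 rested on mouse 5. The dye terms of probes 221 and 551 had opposite signs, 0.28 and -0.54. Of the 6 kidney probes, 4 had positive means and 2 negative ones, those of Umod (-0.37) and Aqp2 (-0.092). Cnp of oligodendrocytes and Glul of astrocytes each had 1 probe with an unadjusted limma p under 0.05, with means of 0.27 and 0.30. The other Glul probe had a mean of 0.023. Oligodendrocyte probes gave 3 positive and 3 negative means, and astrocyte probes 4 positive and 4 negative ones. The part of cell makeup in the values above was not tested.

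Start sites of the trafficking genes were searched for CACGTG, the core of the E-box that TFEB, a regulator of lysosomal genes, recognises, and which reads the same on both strands. RefSeq windows of 300 bases, from 250 before to 50 after each start in GRCm38.p6, were given for 97 of the 122 genes. The motif was in 13 of their 120 windows (10.8%), against 7.15% of all 32851 windows. Tested genes with the motif numbered 8 and had a median pair mean of -0.069, with 2 positive, and the 77 without had a median of -0.022, with 33 positive. The stretches below are those of the tested genes with the motif within 30 bases before the start, each 60 bases long, with the motif in capitals.
Rab21, chr10:115315589-115315648, minus strand: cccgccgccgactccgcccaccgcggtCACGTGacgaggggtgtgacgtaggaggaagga
Vps16, chr2:130424275-130424334, plus strand: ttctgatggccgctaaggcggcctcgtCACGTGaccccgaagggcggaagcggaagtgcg
Vps33a, chr5:123573011-123573070, minus strand: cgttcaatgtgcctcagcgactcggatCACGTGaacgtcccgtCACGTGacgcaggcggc
Averaged over its tested probes, Rab21 had a pair mean of -0.26, Vps16 of 0.0038 and Vps33a of -0.14. Vps16 was close to 0, and the tested probes of Rab21 and of Vps33a lay on both sides of 0. These means therefore give no direction for genes with the motif within 30 bases of the start. A match is a description of the sequence and not a bound site.

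Some genes of the machinery had no value to report. The 15 genes without a tested probe were Cltb, Ap2m1, Ap2s1, Arrb2, Pacsin1, Rab1b, Rab17, Rab20, Rab24, Rab29, Vps26c, Vps72, Snx8, Snx9 and Snx19, of which Vps72 matches by symbol but encodes a subunit of chromatin remodelling complexes. Dnm2, Dnm3, Picalm, Eea1, Tsg101, Stam, Synj1, Rab5a, Rab11b and Vps35 were not analysed here.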

How the data were processed

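The authors deposited log2 ratios for 20355 probes on each of 10 two-colour arrays. The sources used here do not give the numerator of each column, the scanner, or how background and normalization were handled. The labels' protocols give column-purified total RNA and indirect dye labelling. No intensities were analysed, so depth is unknown, and precision is limited by how many arrays there are.

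Probes were named from the platform annotation, in which 14030 carry 1 gene symbol, 5 several and 6320 none. All 187 probes described here matched the mouse RefSeq table of GRCm38.p6 by Entrez identifier, and 0 symbols differed. The genes and lists were chosen with earlier results of these data known.

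Arrays were centred on their medians. A probe needed both arrays of at least 4 mice. The mean of a mouse's 2 arrays, and their difference divided by 2, were compared with 0 in limma 3.58.1 (lmFit, eBayes; R 4.3.3), with Benjamini-Hochberg adjustment over 16939 probes and a threshold of 0.05. The mouse was the replicate. Since the pool counts as 1 control sample, variation among wildtype mice is left out of the test. Each array repeats a single extreme value, 16.437 to 17.64 in size, at 65 to 264 probes (1024 in all, 13 at the probes described here), positive with the mutant in Cy5 and negative with it in Cy3. These capped ratios were kept, and set to missing in an alternative.

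Named were the 10 probes with the smallest p for the pair mean, the 5 for the dye term, the lowest and highest of each role, the probes of a fixed list of core genes, and the probes of a named gene that differ in sign. Probes named beyond the rule were chosen after their values were seen. Alternatives were no centring, scaling, all 10 arrays with the mouse as a random block, the other reading of the swap, each orientation alone, other filters, averaged probes, no variance moderation and leaving out each mouse. The fit was tested on simulated data.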

Additional observations from a re-analysis of the deposited data

Results flagged for a closer look

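In 13 of 100 sets of mouse values examined, 2 for each of the 50 named probes, 1 mouse lay far from the others of its set by Dixon's criterion, which chance meets in about 1 of 20 of groups that were not chosen by their values. The named probes include the lowest and highest mean of each role, which a single far mouse can produce, so the count cannot be compared with that rate. In 10 of the 13 it was mouse 3, whose Cy3 array stood apart from the others of that orientation.

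In the pair mean, mouse 3 read 1.10 on Ap3s2 probe 19583, where the others lay between -0.093 and 0.044. It read 0.91 on Itsn1 probe 255 (others -0.32 to -0.17) and -1.15 on Pacsin2 probe 10364 (others -0.14 to 0.0055). It read -1.43 on Vps36 probe 3958 (others -0.18 to 0.15) and -1.61 on Snx11 probe 16439 (others 1.02 to 1.22). On Rab44 probe 4011 it read -8.55 (others -0.45 to -0.078), from a capped ratio. Mouse 2 read 1.55 on Vps35l probe 17412 (others -0.32 to -0.22), and mouse 4 read 0.009 on Rab39b probe 15766 (others 0.44 to 0.52).

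In the dye term, mouse 3 read -0.59 on Ap3s2 probe 19583 (others 0.13 to 0.29), 0.60 on Rab11a probe 8625 (others -0.32 to -0.084), -0.22 on Snx10 probe 4726 (others 0.23 to 0.41) and 8.19 on Rab44 probe 4011 (others -0.18 to 0.91). Mouse 4 read 8.36 on Epn2 probe 4335 (others 0.64 to 1.65), from a capped ratio. The part of single arrays in these values was not tested further.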

How the results depend on the processing

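With the pair mean, 0 trafficking probes and 0 of all probes passed under every alternative run, and 0 of the named probes passed under any. The median over the trafficking probes, -0.014, moved to -0.068 when the swap was read the other way, -0.14 from the arrays with the mutant in Cy5 alone and 0.028 from those with it in Cy3 alone. The 8 probes with the same sign in all mice became 45 under the other reading, 48 from Cy5 arrays, 24 from Cy3 arrays, 3 with the probes of a gene averaged, and 13 to 23 when a mouse was left out, where 4 mice suffice. Of the 50 named probes, 27 had another sign under the other reading, 17 from Cy5 arrays, 14 from Cy3 arrays, 6 after scaling and 4 to 8 without a mouse.

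The dye term gave 0 calls, but 4 trafficking probes (Snx5, Vps26b, Vps35l and Rab31) and 257 of all probes passed after scaling between arrays, and 24 and 2054 with all 10 arrays in a fit with a dye covariate. In that fit, added after the data were seen, the correlation within a mouse was estimated at -0.02, so its 2 arrays count as separate replicates. Without variance moderation 4 of all probes passed, and 0 to 1 when a mouse was left out. The 2 arrays of a mouse were paired throughout, but no pairing of mice between groups was possible because there is 1 group of mice. Without intensities, signal over background is unknown.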
